A study of Mus musculus with 5 samples.

Results

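The genes described here are 52 immediate early, stress and heat shock genes, taken from a list of symbols. All 52 matched an Ensembl ID in the deposited tables, which hold 41388 IDs, and 50 of them passed the filter on low counts. Fosl1 and Egr3 did not pass and are given by their reads. No threshold on measured values entered the rule, although the list was drawn up with earlier results of these data known.

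The series measured RNA by sequencing in 2 groups of sorted mouse aortic macrophages, both on the C57BL/6 strain. The 3 adventitia libraries held propidium iodide-negative, CD64+ cells of the aortic outer layer, taken along the whole vessel of ApoE-/- mice. These mice, 6 in number, had received high fat diet during 28 weeks. The 2 intima libraries held propidium iodide-negative, CD64+ CD11c+ MHC II+ cells from the thoracic aorta of C57BL/6 mice after the adventitia had been taken off, each from 5 pooled mice, and the labels give no diet for them. Age and sex are not stated for either group. Tissue layer, ApoE genotype, diet, aortic segment and sort gate differed together between the groups and cannot be told apart. The labels do not say how the 6 ApoE-/- mice were divided among the libraries, so p-values measure only the spread between these libraries, which may be technical.

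Immediate early genes are transcribed within minutes of a stimulus without new protein synthesis, through factors that are already present and are switched on by kinase cascades. Heat shock genes encode chaperones that refold damaged proteins, and heat shock factors turn them on when such proteins accumulate. Both groups of genes are widely used as signs of cell handling, because enzymatic digestion of tissue at body temperature is known to induce them, and macrophages also use many of them in their response to inflammatory signals. Here the whole aorta was first held at 37 °C for 8 min with collagenase II and hyaluronidase in both groups. The intima tissue was then held at 37 °C for 70 min in a mixture of DNase I, collagenase I, collagenase XI and hyaluronidase. The adventitia went into the same mixture, for a time the labels do not give. The labels name no transcription inhibitor and the series holds no library from undigested tissue, so expression in the vessel wall and expression gained during handling cannot be told apart in any library.

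The libraries held 3941381 to 10076142 counted reads in the adventitia and 14970204 and 20806925 in the intima. Levels are given as TMM-normalised CPM (read counts scaled to the TMM-adjusted library size), and as the deposited RPKM (read counts scaled to the library total and to gene length) wherever genes are compared with each other. The macrophage label was checked against 12 markers, all of which had reads in both groups, with Lyz2 leading per length on average in the adventitia and C1qb in the intima, and 0 of the 12 called by edgeR (3 at an unadjusted p under 0.05, 1 by DESeq2). Their summed level was 23183, 26382 and 35973 CPM over the adventitia samples, beside 36376 and 24832 CPM in the intima. Mitochondrial genes took 3.27 to 6.15% of the reads in the adventitia and 1.38 to 2.30% in the intima.

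Immediate early genes were among the most abundant transcripts of all 5 libraries. The 52 genes together took 2.99, 2.86 and 2.19% of the reads in adventitia replicates 1, 2 and 3. They took 2.37 and 2.96% in intima replicates 1 and 2. The exact binomial 95% intervals of these shares were no wider than 2.97 to 3.01%, the interval of adventitia replicate 1. Such intervals hold the counting error alone, because reads from PCR copies carry no molecular identifiers and are not independent. The ranges of the groups overlapped, and the lowest share belonged to adventitia replicate 3. The 5 members with the most reads held 49.7 to 54.7% of these reads in the adventitia and 62.1 and 65.2% in the intima.

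By mean RPKM over the libraries, Zfp36, Fos, Dusp1, Atf3 and Rgs1 led the list in that order. Zfp36 encodes tristetraprolin, which binds AU-rich elements and speeds the decay of cytokine mRNAs. It ranked 42, 41 and 37 among all genes by RPKM in the adventitia and 35 and 12 in the intima. Fos, the AP-1 subunit that defines the immediate early response, ranked 40, 44 and 54 in the adventitia and 37 and 25 in the intima. Atf3, a stress-induced bZIP repressor, ranked 71, 80 and 107 against 77 and 43. Dusp1 ranked 46, 55 and 71 against 70 and 143. Rgs1 ranked only 322, 201 and 242 in the adventitia, against 75 and 49 in the intima. Among the 100 genes of highest RPKM there were 4, 4 and 3 members in the adventitia libraries and 5 and 6 in the intima libraries. Among the first 1000 there were 30, 32 and 25 against 25 and 21. The median member with a read stood at the percentile 96.6, 97.6 and 96.0 of all genes with a read in the adventitia and at 94.4 and 91.0 in the intima. Genes with a read numbered 23289 to 25738 in the adventitia and 17489 and 16374 in the intima, so that the same rank gives a lower percentile in the intima, and the percentiles are not compared between the groups.

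**Figure D1:**
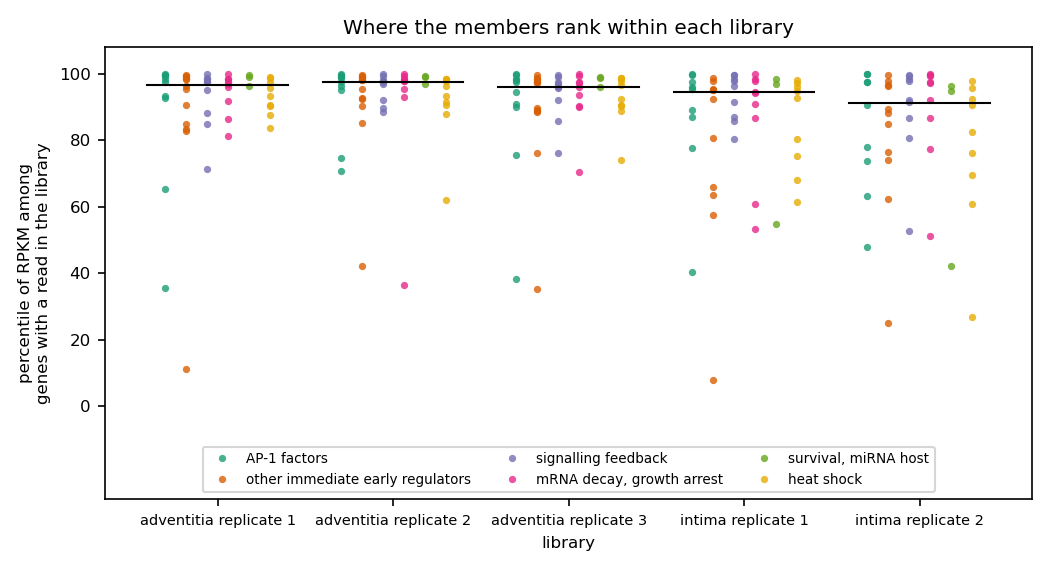
Percentile of each member's RPKM among the genes with a read in the same library (y axis) for the 5 libraries (x axis), with points coloured by role and a black line at the median of the members. The medians lie at 96.6, 97.6 and 96.0 in the adventitia and at 94.4 and 91.0 in the intima.

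Few of the members differed between the groups beyond the spread of the libraries. edgeR's quasi-likelihood test, adjusted by the Benjamini-Hochberg method over 13408 genes, called 0 of the 50 tested members higher in the intima and 2 lower, Nr4a3 and Mir155hg. Over all tested genes it called 0.671% (90 genes), with 0.522% higher and 0.149% lower in the intima. With TMM these were 70 higher and 20 lower genes. Upper-quartile scaling gave 46 and 29, and unadjusted library sizes gave 59 and 34. At an unadjusted p under 0.05, edgeR had 5 members higher and 8 lower, 13 of 50, while 22.4% of all tested genes passed that limit. The group ranges did not overlap for 18 of the 50 members, 9 in each direction. Over all tested genes this share was 40.9%, with 17.7% higher and 23.2% lower in the intima. DESeq2 called 2 members higher (Rgs1 and Ppp1r15a) and 4 lower (Jund, Hsph1, Nr4a3 and Mir155hg), beside 8.88% of all tested genes.

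The count of called members depended on single libraries. edgeR called 0 members without adventitia replicate 1, 2 or 3, beside 0.0811, 0.407 and 0.361% of all genes tested there. It called 7 members without intima replicate 1, beside 2.5% of genes, and 3 without intima replicate 2, beside 0.885%. These last fits hold a lone intima library, whose unseen spread is taken from the adventitia. edgeR's biological coefficient of variation, a common spread relative to level, was 1.28 between the intima libraries and 0.703 between the adventitia libraries. The lone-library fits therefore use a smaller spread than the intima libraries showed, and their counts may be too high. The main fit takes a shared spread for both groups. With every gene that had a read, edgeR called 5 members, beside 1.22% of genes, and limma voom called 4, beside 6.26%.

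The median log2 difference of the 50 members, intima minus adventitia as everywhere below, was -0.44, beside a median of 0.14 over all tested genes. Upper-quartile scaling moved these medians to -0.92 and -0.35, and unadjusted library sizes moved them to -0.69 and -0.09. The members' median minus that of all genes was -0.58 under TMM, and under the other 2 scalings -0.57 and -0.59. With TMM, 15 members had a positive and 35 a negative difference, while 53.4% of all tested genes had a positive one. With upper-quartile scaling the members had 14 and 36. In bulk samples fewer cells that express a gene and less RNA per cell cannot be told apart, for these values and for all that follow.

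**Figure D2:**
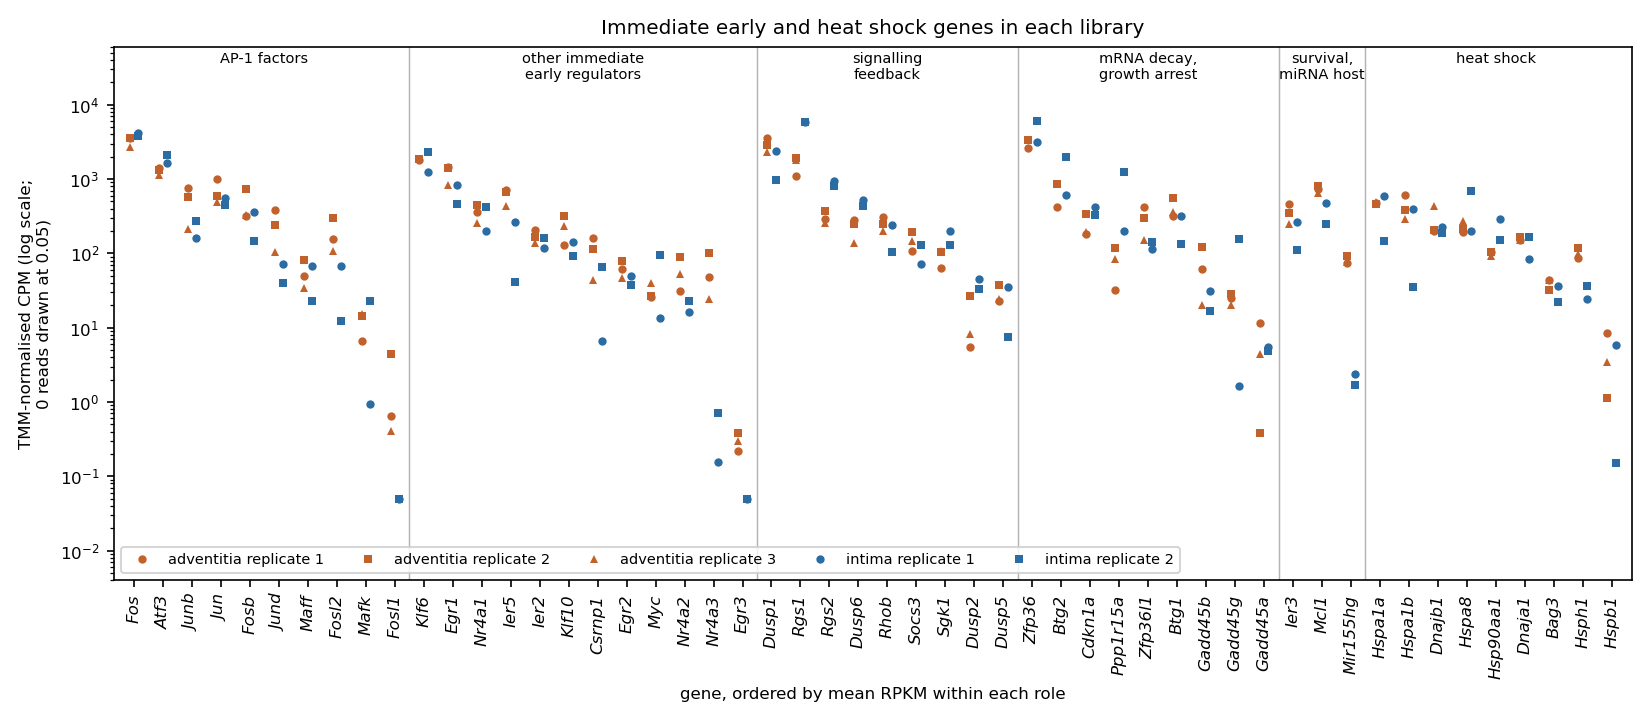
TMM-normalised CPM (y axis, log scale) of the 52 members (x axis, grouped by role and ordered by mean RPKM) in each of the 5 libraries, with colour for the group and shape for the replicate number. Most members overlap between the groups, while Nr4a3 and Mir155hg lie below 3 CPM in both intima libraries and above 24 CPM in all 3 adventitia libraries.

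Nr4a3 encodes NOR1, an orphan nuclear receptor that is induced as an immediate early gene and acts as a transcription factor without a known ligand. It was at 48.8, 100 and 24.5 CPM in adventitia and at 0.157 and 0.705 CPM in the intima. These levels rest on 223, 1053 and 245 reads in the adventitia and 2 and 14 reads in the deeper intima libraries. Every adventitia library lay far above both intima libraries. edgeR gave a log2 difference of -6.99 over 3 and 2 libraries (SE 1.28, adjusted p = 0.0344). The log2 difference ran from -6.40 without adventitia replicate 2 to -8.33 without intima replicate 2, with few intima reads in each case. The gene (ENSMUSG00000028341) lies on chromosome 4 from 48045153 to 48086447 in GRCm38. The call was lost in edgeR without adventitia replicate 1, 2 or 3 (adjusted p = 0.215, 0.175 and 0.0629) and with counts thinned to the smallest library (adjusted p = 0.0598).

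Its relatives Nr4a1 (NUR77) and Nr4a2 (NURR1), which bind related DNA elements, did not pass the test. Nr4a1, known in mice for its role in patrolling monocytes, was at 356, 454 and 255 CPM in adventitia and at 197 and 423 CPM in the intima. Its groups overlapped, and the log2 difference was -0.20 (SE 0.47, adjusted p = 0.864 in edgeR). Nr4a2 was at 31.1, 89.6 and 53.3 CPM against 16.3 and 22.9 CPM. Its groups did not overlap, yet its log2 difference of -1.57 fell short of the threshold (SE 0.78, adjusted p = 0.260 in edgeR). Whether the difference of Nr4a3 exceeds that of its relatives was not tested. By mean RPKM, Nr4a1 stood at place 15 of the 52 members, Nr4a2 at 44 and Nr4a3 at 47, and both adventitia and intima libraries had Nr4a1 as the highest of the family.

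The sequence just before each NR4A gene is shown because the family is a textbook target of the cAMP response element-binding protein (CREB) and because its members differed in level. The letters are from RefSeq (GRCm38.p6), end before both the RefSeq start and the start of the gene in the deposited tables, and carry the 5-base core of the cAMP response element, TGACG or CGTCA, in capitals.
Nr4a1 (chr15:101266596-101266845, plus strand): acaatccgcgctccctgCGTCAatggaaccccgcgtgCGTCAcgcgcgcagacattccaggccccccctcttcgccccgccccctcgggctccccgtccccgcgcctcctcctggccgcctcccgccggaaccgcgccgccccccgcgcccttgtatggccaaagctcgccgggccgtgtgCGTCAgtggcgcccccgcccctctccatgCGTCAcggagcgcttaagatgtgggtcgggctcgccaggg
Nr4a2 (chr2:57124004-57124253, minus strand): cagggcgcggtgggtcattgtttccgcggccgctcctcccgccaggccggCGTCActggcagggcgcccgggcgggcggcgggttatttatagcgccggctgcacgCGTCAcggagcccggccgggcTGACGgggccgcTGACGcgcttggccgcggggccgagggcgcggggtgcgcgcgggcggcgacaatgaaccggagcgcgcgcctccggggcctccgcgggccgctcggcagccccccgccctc
Nr4a3 (chr4:48045055-48045152, plus strand): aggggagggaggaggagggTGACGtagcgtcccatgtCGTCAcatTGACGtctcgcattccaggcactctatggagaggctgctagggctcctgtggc
The core occurred 4 times in the 250 bases before the start of Nr4a1, 4 times for Nr4a2 and 4 times for Nr4a3, of which 3 are in the shorter stretch shown. Promoters were found for 43 of the 52 members, and 20 of these (46.5%) held the core in the 250 bases, as did 19.8% of all 27025 genes with a promoter. The full palindrome TGACGTCA was in 4 members (9.30%, against 1.77% of all genes), namely Btg2, Dusp1, Maff and Ppp1r15a. The CArG box, which serum response factor binds, was in 3 members (Dusp5, Egr2 and Zfp36) and in 1.62% of all genes. The AP-1 site, TGACTCA or TGAGTCA, was in 2 members (Bag3 and Csrnp1; 4.65%) and in 5.16% of all genes. These are letter matches on both strands and not shown to be bound.

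Mir155hg is the host transcript of miR-155, a microRNA that macrophages make on inflammatory activation. It was at 73.9, 92.8 and 75.5 CPM in adventitia and at 2.35 and 1.71 CPM in the intima, from 338, 975 and 754 reads against 30 and 34. The libraries agreed closely within each group and the groups lay far apart. edgeR gave a log2 difference of -5.31 over 3 and 2 libraries (SE 0.83, adjusted p = 0.0127), a fitted level 39.6-fold higher in the adventitia. The call was lost in edgeR without adventitia replicate 1, 2 or 3 (adjusted p = 0.137, 0.0941 and 0.0776). The gene (ENSMUSG00000097418) lies on chromosome 16 from 84703167 to 84715245. The libraries were made from poly-A RNA and measured the host transcript, not the mature microRNA. The mature strand it carries is shown with its seed, bases 2 to 8, in capitals, from RefSeq (GRCm38.p6).
miR-155-5p (chr16:84714143-84714165, plus strand): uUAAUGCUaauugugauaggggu

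**Figure D3:**
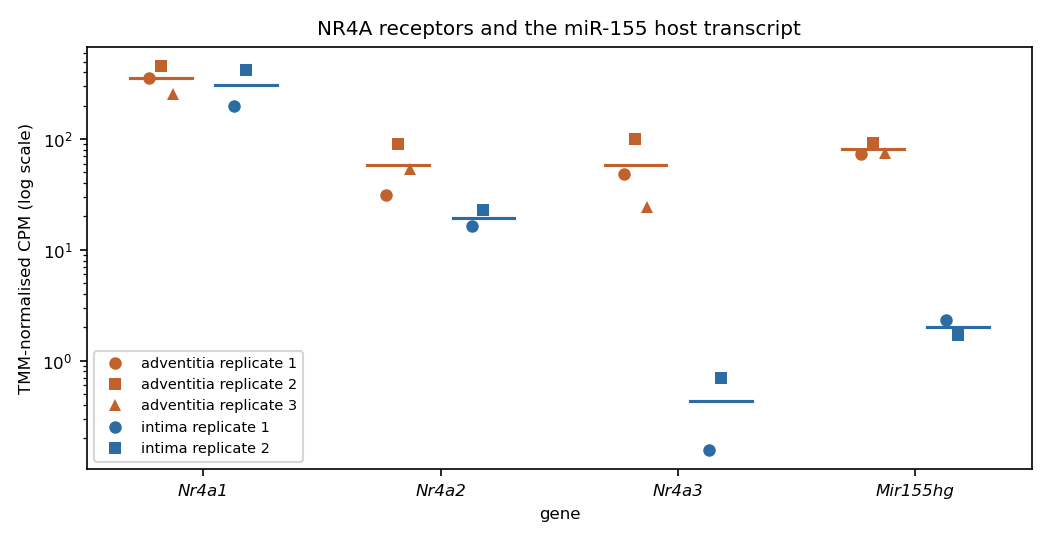
TMM-normalised CPM (y axis, log scale) of the NR4A genes and Mir155hg (x axis) in each library, with a bar at the group mean. Nr4a1 overlaps between the groups, Nr4a2 is lower in both intima libraries without passing the test, and Nr4a3 and Mir155hg are at 0.157 to 2.35 CPM in the intima.

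Among the 10 AP-1 factors, which bind DNA as dimers of FOS, JUN, ATF and MAF proteins, 9 were tested, and 0 were called in either direction by edgeR. At an unadjusted p under 0.05, 0 were higher and 2 lower, beside 22.4% of all tested genes in either direction. DESeq2 called Jund lower, beside 8.88% of all tested genes, and the median log2 difference was -0.45. The same shares are to be set beside the counts of the other roles below. Fos was at 3622, 3566 and 2698 CPM in adventitia and at 4184 and 3857 CPM in the intima. The intima libraries were above all adventitia libraries, but the log2 difference of 0.29 was smaller than its error (SE 0.42, adjusted p = 0.756 in edgeR) and turned to -0.20 with upper-quartile scaling and to -0.11 with thinned counts. Atf3 was at 1432, 1308 and 1129 CPM against 1641 and 2136 CPM (edgeR log2 difference 0.55 with an SE of 0.40, adjusted p = 0.461). It too had separate groups and did not pass.

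The JUN proteins form the other side of the AP-1 dimer, and JUND and JUNB are often counted as weaker activators than JUN. Jun was at 988, 599 and 492 CPM in adventitia and at 561 and 451 CPM in the intima, with overlapping groups. Junb was at 751, 566 and 212 CPM against 159 and 276 CPM, again with overlap (edgeR log2 difference -1.23 with an SE of 0.56, adjusted p = 0.224). Jund was at 385, 238 and 104 CPM against 71.3 and 39.9 CPM, with both intima libraries below all adventitia libraries. Its log2 difference of -2.13 fell short of the threshold (SE 0.62, adjusted p = 0.108 in edgeR). An antisense gene, Gm11175, covers 18.9% of the Jund exon bases and the strand setting of the counts is not given, so reads of the pair cannot be told apart.

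Fosl2, which encodes the FOS relative FRA2, was at 158, 303 and 107 CPM in adventitia and at 67.3 and 12.4 CPM in the intima. The groups were separate, while the intima libraries differed more than 4-fold from each other, and its log2 difference of -2.25 fell short of the threshold (SE 0.76, adjusted p = 0.124 in edgeR). It was -1.40 without intima replicate 2 and -4.06 without intima replicate 1. Fosb was at 318, 726 and 333 CPM against 365 and 147 CPM. Fosl1, which encodes FRA1, had 3, 46 and 4 reads in the adventitia and 0 in both intima libraries. With reads pooled in each group, Fosl1 was 23.0-fold lower in the intima when 3 reads are allowed for that whole group. This figure allows for no counting error in the adventitia, rests mainly on adventitia replicate 2 and leaves out the spread between libraries. Of the 50-base stretches of Fosl1 in GENCODE M21, 52.6% also occur in another gene, Ccdc85b. In the deposited tables, 0 of its exon bases overlap another gene. Whether its reads were lost or shared was not tested. The small MAF proteins lack an activation domain and were less abundant. Maff ranged from 34.4 to 81.2 CPM in adventitia and at 67.2 and 23.0 CPM in the intima, and Mafk at 6.56 to 15.4 CPM against 0.941 and 23.2 CPM.

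Among the 12 other immediate early regulators, 11 were tested, of which Nr4a3 fell and 0 were called higher by edgeR. The median log2 difference was -0.93, and 10 of the 11 had a negative difference, while 53.4% of all tested genes had a positive one. Klf6, a zinc finger factor of the Krüppel-like family, was the most abundant by RPKM, at 1789, 1855 and 1891 CPM over the adventitia samples, beside 1264 and 2345 CPM in the intima. The adventitia values lay between the intima values. Its log2 difference was -0.03 (SE 0.43, adjusted p = 0.980 in edgeR) and turned positive, to 0.15, with every gene that had a read.

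Egr1, the zinc finger factor that follows MAPK and serum response factor signalling, was at 1465, 1398 and 829 CPM in adventitia and at 829 and 460 CPM in the intima. Adventitia replicate 3 and intima replicate 1 were at the same level, and its log2 difference of -0.93 fell short of the threshold (SE 0.46, adjusted p = 0.260 in edgeR). Egr2, which macrophages also express in alternative activation, was at 47.0 to 79.8 CPM against 49.1 and 37.4 CPM. Egr3 had 1, 4 and 3 reads in the adventitia and 0 in both intima libraries. When 3 reads are allowed for the whole intima group, as for Fosl1, Egr3 was 3.47-fold lower in the intima. This figure rests on 8 adventitia reads, whose own counting error it leaves out.

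Ier5, which encodes a protein that assists heat shock factor 1, was at 718, 676 and 438 CPM in adventitia and at 265 and 41.6 CPM in the intima. Both intima libraries were lower, by very different amounts, and its log2 difference of -2.00 fell short of the threshold (SE 0.68, adjusted p = 0.127 in edgeR). It was -1.12 without intima replicate 2 and -4.01 without intima replicate 1. Ier2 overlapped between the groups, at 208, 166 and 140 CPM against 120 and 161 CPM. Myc, the growth-promoting bHLH factor, ranged from 26.0 to 39.3 CPM in adventitia and at 13.6 and 95.1 CPM in the intima, so the intima libraries stood on both sides of the adventitia. Csrnp1 was at 44.4 to 159 CPM against 6.66 and 65.7 CPM, and Klf10, which is induced by TGF-beta, at 129 to 320 CPM against 142 and 92.3 CPM.

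Among the 9 genes of signalling feedback, all tested, 0 were called in either direction by edgeR, and 3 were higher and 0 lower at an unadjusted p under 0.05, while DESeq2 called Rgs1 higher. The median log2 difference was 0.85. Rgs1 and Rgs2 encode GTPase-activating proteins that shorten signals from G protein-coupled receptors such as chemokine receptors. Rgs1 was at 1105, 1952 and 1814 CPM in adventitia and at 5888 and 5891 CPM in the intima. The intima libraries were almost equal and stood above all adventitia libraries. The log2 difference was 1.86 (SE 0.44, n = 3 and 2), with an adjusted p of 0.0868 in edgeR that misses the threshold. Rgs2 was at 291, 377 and 253 CPM against 929 and 798 CPM (edgeR log2 difference 1.49 with an SE of 0.40, adjusted p = 0.0905). Both stayed positive under the 4 scalings tried, and limma voom called both, with adjusted p = 0.0140 for Rgs1 and 0.0394 for Rgs2. With 1 library left out, the log2 difference ran from 1.58 to 1.97 for Rgs1 and from 1.24 to 1.69 for Rgs2. edgeR called neither without adventitia replicate 1, 2 or 3, with an adjusted p of up to 0.259 for Rgs1. Rgs1 was called under 5 of 16 alternatives, among them the fits with a lone intima library, and Rgs2 under 2.

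The dual-specificity phosphatases of this group switch off MAP kinases. Dusp1, which acts on p38 and JNK, was at 3622, 2908 and 2328 CPM in adventitia and at 2359 and 983 CPM in the intima. Its groups overlapped, and the log2 difference was -0.82 (SE 0.49, adjusted p = 0.359 in edgeR). Dusp6, which acts on ERK in the cytoplasm, was at 286, 248 and 137 CPM against 521 and 437 CPM. Its groups did not overlap, and its log2 difference of 1.10 fell short of the threshold (SE 0.44, adjusted p = 0.170 in edgeR). Dusp2, a nuclear phosphatase, was at 5.47, 26.6 and 8.21 CPM against 44.9 and 33.3 CPM, and Dusp5, which acts on nuclear ERK, at 23.0 to 37.5 CPM against 35.5 and 7.60 CPM.

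The other feedback genes overlapped between the groups except Sgk1. Sgk1, a kinase of cell volume and hormone responses, was at 63.9, 105 and 106 CPM in adventitia and at 202 and 130 CPM in the intima (edgeR log2 difference 0.85 with an SE of 0.49, adjusted p = 0.341). Socs3, the inhibitor of JAK and STAT signalling downstream of cytokine receptors, was at 109 to 196 CPM against 71.1 and 128 CPM. Rhob, a small GTPase of endosomes, was at 199 to 308 CPM against 241 and 106 CPM.

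Among the 9 genes of mRNA decay, growth arrest and the stress translation response, 0 were called in either direction by edgeR, with 1 higher and 1 lower at an unadjusted p under 0.05 and Ppp1r15a higher in DESeq2. Ppp1r15a encodes GADD34, which directs a phosphatase to translation initiation factor eIF2 and so restarts protein synthesis after stress. It was at 32.2, 118 and 83.1 CPM in adventitia and at 200 and 1245 CPM in the intima. Both intima libraries were above all adventitia libraries, and intima replicate 2 was 6.21 times intima replicate 1. The log2 difference of 3.21 did not pass (SE 0.72, adjusted p = 0.0864 in edgeR). It was 1.45 without intima replicate 2 and 3.86 without intima replicate 1.

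Zfp36 was at 2636, 3344 and 3311 CPM in adventitia and at 3192 and 6025 CPM in the intima, with intima replicate 1 inside the adventitia range (edgeR log2 difference 0.57 with an SE of 0.45, adjusted p = 0.502). Its relative Zfp36l1 had a difference of the opposite sign, at 428, 304 and 153 CPM against 114 and 140 CPM (edgeR log2 difference -1.21 with an SE of 0.52, adjusted p = 0.194), and an antisense gene covers 56.0% of its exon bases. Btg2, an antiproliferative protein that recruits the deadenylase complex, was at 418, 865 and 859 CPM against 619 and 1969 CPM. Its groups overlapped, and the log2 difference of 0.86 (edgeR, SE 0.54, adjusted p = 0.379) turned to -0.12 without intima replicate 2. Btg1, its relative, was at 319, 555 and 363 CPM against 321 and 134 CPM.

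Cdkn1a encodes p21, the cyclin-dependent kinase inhibitor, and was at 184, 344 and 193 CPM in adventitia and at 421 and 326 CPM in the intima, with overlap. The GADD45 proteins bind stress kinases and cell cycle regulators. Gadd45b was at 61.9, 122 and 20.2 CPM against 30.7 and 16.9 CPM. Gadd45g ranged from 20.02 to 28.7 CPM in the adventitia, and in the intima at 1.65 CPM in replicate 1 and 155 CPM in replicate 2. These intima values rest on 21 and 3085 reads. Gadd45a was at 0.381 to 11.6 CPM against 5.57 and 4.88 CPM.

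Both survival genes were lower in the intima libraries on average without passing the test. Mcl1, an anti-apoptotic BCL2 family protein with a short half-life, was at 740, 815 and 651 CPM in adventitia and at 472 and 250 CPM in the intima. The groups did not overlap, and the log2 difference was -1.03 (SE 0.44, adjusted p = 0.196 in edgeR). Ier3, an inhibitor of apoptosis induced by NF-kB, was at 455, 354 and 251 CPM against 264 and 110 CPM (edgeR log2 difference -0.92 with an SE of 0.50, adjusted p = 0.310).

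**Figure D4:**
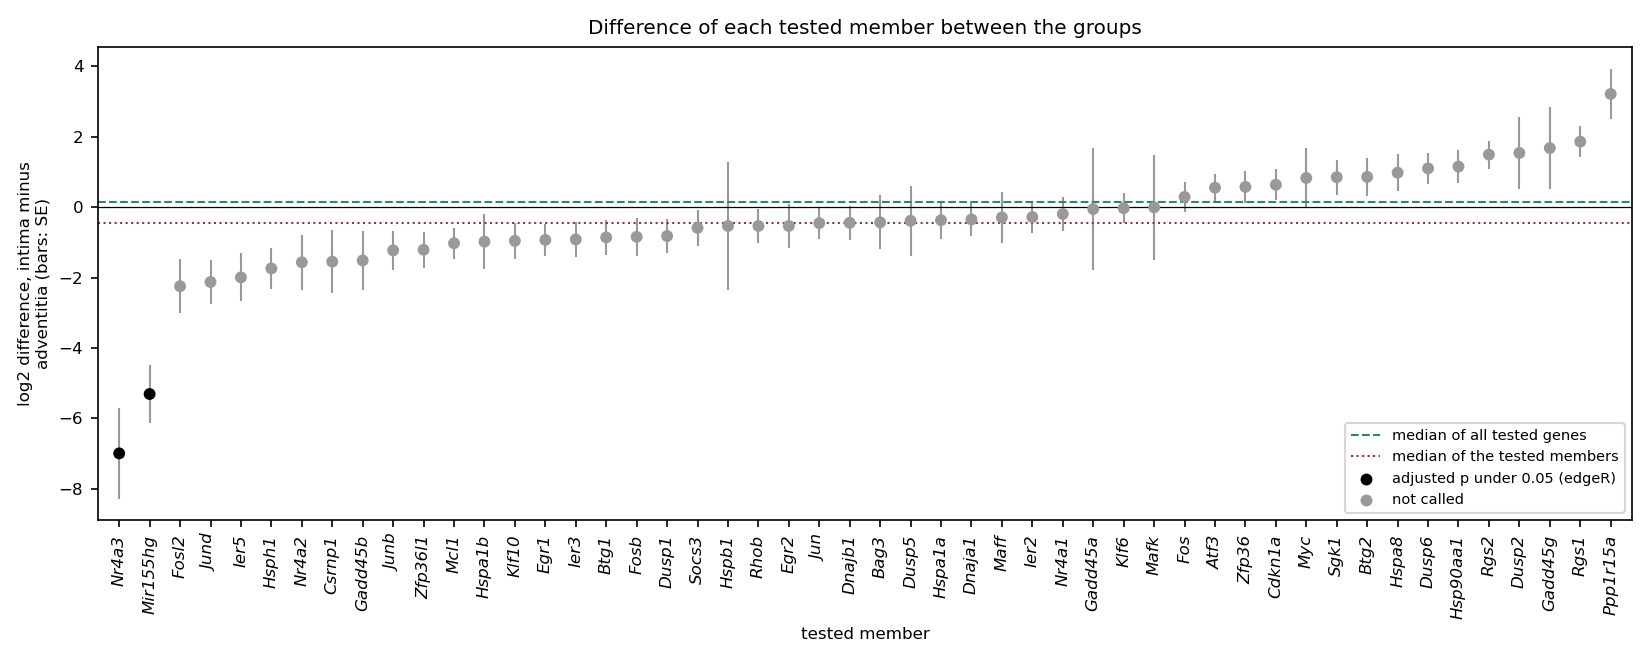
Log2 difference, intima minus adventitia (y axis, bars for the SE), of the 50 tested members (x axis, in rising order), with black points for members called by edgeR and lines at the median of the members and of all tested genes. Nr4a3 (-6.99) and Mir155hg (-5.31) stand apart at the low end, and the other members lie between -2.25 and 3.21.

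Among the 9 heat shock genes, all tested, 0 were called in either direction by edgeR, with 1 higher and 1 lower at an unadjusted p under 0.05 and Hsph1 lower in DESeq2. The median log2 difference was -0.43. Hspa1a and Hspa1b encode the stress-inducible HSP70, the chaperone that rises most steeply on heat or protein damage. Hspa1a was at 483, 457 and 494 CPM in adventitia and at 592 and 147 CPM in the intima. The adventitia libraries were nearly equal and lay between the intima libraries (edgeR log2 difference -0.37 with an SE of 0.54, adjusted p = 0.755). The difference turned to 0.40 without intima replicate 2. Hspa1b was at 610, 388 and 293 CPM against 401 and 35.1 CPM (edgeR log2 difference -0.98 with an SE of 0.78, adjusted p = 0.508). Its difference was -3.75 without intima replicate 1 and -0.01 without intima replicate 2.

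The HSP70 pair cannot be cleanly separated in these data. Of the 50-base stretches of the Hspa1a transcripts, 66.3% also occur in another gene, mostly Hspa1b, and for Hspa1b the share is 62.3%, while reads were single and 50 bases long, and an antisense gene (Gm20481) covers 19.0% of the Hspa1a exon bases. Reads of Hspa1a over those of Hspa1b gave ratios of 0.792, 1.18 and 1.68 in the adventitia and 1.48 and 4.18 in the intima. Summed as 1 gene, an addition made after seeing the data, they were at 1093, 844 and 787 CPM in adventitia and at 994 and 182 CPM in the intima. The log2 difference of the sum was -0.63 (SE 0.61, adjusted p = 0.606 in edgeR). The genes (ENSMUSG00000091971 and ENSMUSG00000090877) lie next to each other on chromosome 17, from 34969190 to 34972156 and from 34956436 to 34959238 in GRCm38.

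Their upstream sequences are shown because the copies share them as well. They are from RefSeq (GRCm38.p6), and the capitals mark the inverted pair GAANNTTC of the heat shock element.
Hspa1a (chr17:34972157-34972406, minus strand): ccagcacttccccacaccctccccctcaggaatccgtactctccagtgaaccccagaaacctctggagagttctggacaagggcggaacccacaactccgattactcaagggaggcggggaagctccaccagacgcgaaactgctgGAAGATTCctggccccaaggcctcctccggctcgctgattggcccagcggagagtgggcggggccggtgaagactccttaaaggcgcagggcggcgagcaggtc
Hspa1b (chr17:34959239-34959488, minus strand): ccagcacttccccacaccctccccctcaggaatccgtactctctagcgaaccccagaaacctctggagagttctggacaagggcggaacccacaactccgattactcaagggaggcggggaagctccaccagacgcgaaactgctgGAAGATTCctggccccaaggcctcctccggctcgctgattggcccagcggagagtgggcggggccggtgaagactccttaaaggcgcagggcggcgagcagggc
The 250 bases differ at 3 positions. The inverted pair, in either order (GAANNTTC or TTCNNGAA), was in 10 of the 43 members with a promoter (23.3%), against 14.5% of all genes with a promoter. A run of 3 such units was in 0 of these members and in 0.514% of all genes.

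The other chaperones had differences of both signs. Hspa8, the constitutive HSC70, was at 192, 216 and 272 CPM in adventitia and at 200 and 692 CPM in the intima. Its intima libraries stood 3.46-fold apart, and the log2 difference of 0.98 (edgeR, SE 0.52, adjusted p = 0.292) turned to -0.09 without intima replicate 2. Hsp90aa1, the inducible cytosolic HSP90, was at 103, 103 and 91.2 CPM against 287 and 154 CPM, with separate groups (edgeR log2 difference 1.15 with an SE of 0.46, adjusted p = 0.172). Hsph1, the HSP110 that exchanges nucleotide on HSP70, was at 86.6, 120 and 96.8 CPM against 24.0 and 36.5 CPM, also with separate groups and in the opposite direction (edgeR log2 difference -1.74 with an SE of 0.59, adjusted p = 0.122). Of the 50-base stretches of Hspa8 and Hsp90aa1, 39.4% and 47.5% also occur in other genes, mostly predicted genes, and reads of such stretches may have been lost or shared.

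The J-domain proteins that hand clients to HSP70 overlapped between the groups. Dnajb1 was at 200, 205 and 441 CPM in adventitia and at 224 and 191 CPM in the intima, and Dnaja1 at 153, 166 and 154 CPM against 83.5 and 164 CPM. Bag3, a co-chaperone that links HSP70 to autophagy, was at 32.2 to 43.8 CPM against 36.8 and 22.3 CPM. Hspb1, the small heat shock protein HSP25, was scarce, with 39, 12 and 35 reads in the adventitia and 75 and 3 reads in the intima.

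The 2 intima libraries disagreed on several of these genes. They differed more than 4-fold for 12 of the 50 tested members, a smaller share than the 43.7% of all tested genes. The highest and lowest adventitia library differed that much for 5 members, beside 37% of all tested genes. Intima replicate 2 had more of Gadd45g, Mafk, Csrnp1, Myc, Ppp1r15a and Nr4a3, where Nr4a3 rests on 14 reads against 2. Intima replicate 1 had more of Hspb1, Hspa1b, Hspa1a, Ier5, Fosl2 and Dusp5, where Hspb1 rests on 75 reads against 3. So the inducible HSP70 genes were more abundant in one intima library and the eIF2 phosphatase subunit in the other.

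**Figure D5:**
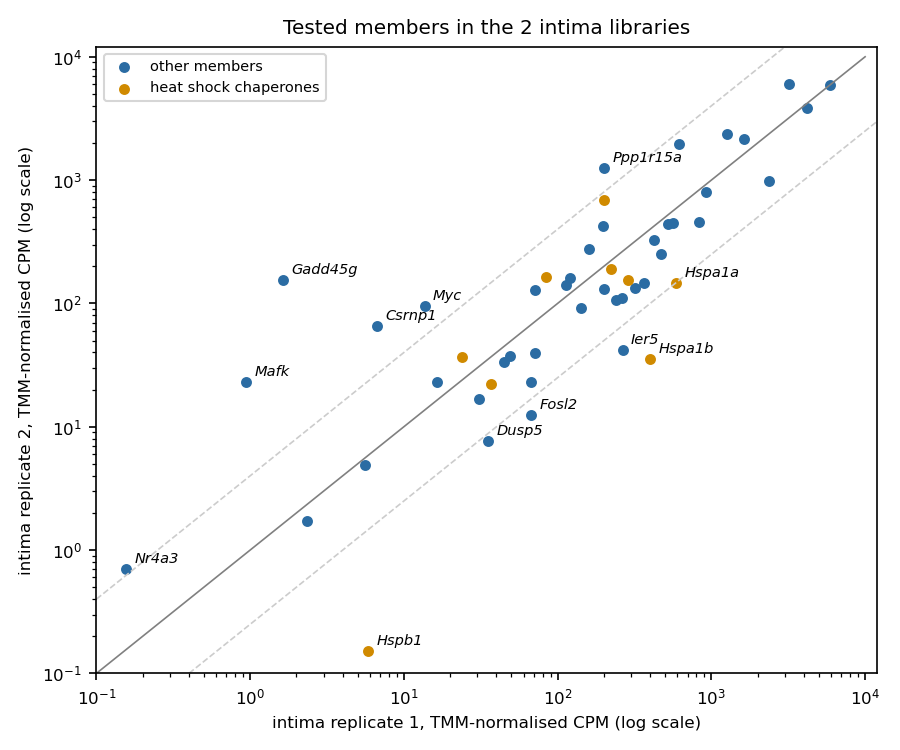
TMM-normalised CPM of the 50 tested members in intima replicate 1 (x axis) and intima replicate 2 (y axis), both on log scales, with heat shock genes in orange, a solid line for equal levels and dashed lines for a 4-fold difference. The 12 named genes lie outside the dashed lines, among them Ppp1r15a (200 and 1245 CPM) and Hspa1b (401 and 35.1 CPM).

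Of 31 further heat shock and chaperone genes in the tables, 29 were tested and 0 were called in either direction by edgeR. At an unadjusted p under 0.05, 7 were higher and 2 lower, DESeq2 called 1 higher and 0 lower, and the median log2 difference was 0.56. Over all tested genes, 22.4% passed that unadjusted limit and DESeq2 called 8.88%, the shares to set beside this list and those below. Hsp90ab1, the constitutive cytosolic HSP90, was at 787, 619 and 672 CPM in adventitia and at 1113 and 2188 CPM in the intima (edgeR log2 difference 1.25 with an SE of 0.43, adjusted p = 0.125). Hspa5, the HSP70 of the endoplasmic reticulum, was at 659, 978 and 774 CPM against 920 and 2056 CPM. Hsp90b1, the HSP90 of the endoplasmic reticulum, was at 582 to 674 CPM against 772 and 817 CPM. Of 5 heat shock regulators 4 were tested, and 0 were called by edgeR, by DESeq2 or at an unadjusted p under 0.05. Hsf1, which turns the heat shock genes on, was at 2.19, 19.4 and 12.8 CPM against 1.80 and 40.2 CPM, Hsf2 at 44.0 to 61.9 CPM against 52.2 and 31.8 CPM, and Hsbp1, which binds heat shock factor, at 441 to 542 CPM against 697 and 239 CPM.

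Of 22 kinases and factors upstream of the immediate early genes, all tested, 0 were called in either direction by edgeR, with 1 higher and 1 lower at an unadjusted p under 0.05 and 1 higher in DESeq2. Their median log2 difference was -0.09. Mapk3 (ERK1) ranged from 104 to 105 CPM in adventitia and at 31.7 and 103 CPM in the intima. Mapk14, the p38 alpha kinase, was at 127 to 198 CPM against 137 and 92.5 CPM, and Map2k1, the kinase that activates ERK, at 65.0 to 87.1 CPM against 135 and 95.1 CPM.

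Of 45 further rapid response genes 42 were tested, and edgeR called 2 higher and 0 lower in the intima, beside 0.671% of all tested genes. At an unadjusted p under 0.05, 3 were higher and 11 lower, beside 22.4% of all tested genes. DESeq2 called 2 higher and 7 lower, beside 8.88%. Ccn1, the matricellular protein CYR61, was at 102, 49.0 and 61.3 CPM in adventitia and at 352 and 396 CPM in the intima (edgeR log2 difference 2.40 with an SE of 0.47, adjusted p = 0.0464). Id1, an inhibitor of bHLH factors that BMP signals induce, had 0, 3 and 2 reads in the adventitia and was at 51.6 and 31.6 CPM in the intima (edgeR log2 difference 7.77 with an SE of 1.51, adjusted p = 0.0464). Endothelial and smooth muscle cells are known to express both genes. The summed levels of their markers were higher in the intima, but single markers differed. Kdr (log2 difference -3.43), Myocd (-2.49), Myh11 (-2.09) and Mylk (-0.50) were lower in the intima without a call by edgeR. Erg had no reads in intima replicate 2 and Cldn5 had none in intima replicate 1. The 12 endothelial markers summed to 33.5 to 52.3 CPM over the adventitia samples, beside 869 and 1007 CPM in the intima, 4 of 11 tested markers were called higher, and 0 of the 12 were without reads in either group. Per length, Egfl7 led this list on average in the adventitia (1.52 to 20.3 CPM) and Pecam1 in both intima libraries (226 and 341 CPM). The 10 smooth muscle markers summed to between 14.9 and 52.5 CPM against 345 and 96.2 CPM, with 1 of 7 tested called higher, 0 without reads, and Mylk in the adventitia and Tagln in the intima leading on average per length. Acta2 led in intima replicate 1 and Tagln in intima replicate 2. The part of these cells in the levels of Ccn1 and Id1, and of the 52 members, was not tested.

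The median log2 difference of these 42 genes was -0.65. Id2, the relative of Id1, was at 773, 1734 and 1443 CPM in adventitia and at 919 and 486 CPM in the intima. Nfkbia, the NF-kB inhibitor that NF-kB itself induces, was at 955 to 1897 CPM against 617 and 981 CPM. Pim1, a survival kinase, was at 932, 1705 and 1034 CPM against 428 and 326 CPM, with separate groups (edgeR log2 difference -1.70 with an SE of 0.46, adjusted p = 0.0934).

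Of 14 rapid cytokine and chemokine targets 13 were tested and 0 were called in either direction by edgeR. At an unadjusted p under 0.05, 2 were higher and 5 lower, beside 22.4% of all tested genes. DESeq2 called 3 lower, beside 8.88% of all tested genes in either direction, and the median log2 difference was -0.96. Ccl4 ranged from 3586 to 5164 CPM in adventitia and at 7088 and 5750 CPM in the intima, and Cxcl2, which attracts neutrophils, at 4411 to 5962 CPM against 2820 and 2754 CPM. Ccl7, which attracts monocytes, was at 3402, 4172 and 4596 CPM against 1045 and 280 CPM and did not pass (edgeR log2 difference -2.61 with an SE of 0.60, adjusted p = 0.0868).

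Markers of further cell types were read beside these values. The 10 fibroblast markers summed to 653 to 1545 CPM over the adventitia samples, beside 314 and 236 CPM in the intima. Per length, Dcn led them in the adventitia and in intima replicate 1 and Col1a1 in intima replicate 2, and edgeR called 2 of 10 lower, Lum and Ogn. The 8 dendritic cell markers summed to 287 to 469 CPM against 85.2 and 45.9 CPM, with Cd209a leading per length in all 3 adventitia libraries, Batf3 in both intima libraries, Cd209a called lower and Xcr1 without reads in the intima. The 8 B cell markers found, led on average per length by Ighm in both groups, summed to 271 to 785 CPM against 1204 and 958 CPM, with 0 of 7 tested called by edgeR (2 at an unadjusted p under 0.05, 0 by DESeq2) and Ms4a1 without reads in the intima. The 11 T and NK cell markers summed to 8.71 to 9.42 CPM against 129 and 101 CPM. Cd4, which macrophages can also express, made up nearly all of the sum in intima replicate 1, where the other markers summed to 0.470 CPM, and they summed to 61.8 CPM in intima replicate 2. Per length, Trbc2 led on average in the adventitia and Cd4 in the intima. Of 4 tested, 0 were called by edgeR (1 at an unadjusted p under 0.05, 1 by DESeq2), and Ncr1, Nkg7 and Klrb1c had no reads in the intima. The 10 neutrophil markers, led on average per length by S100a8 in the adventitia and S100a9 in the intima, summed to 36.1 to 92.1 CPM against 0.314 and 43.4 CPM. Of 4 tested, 0 were called by edgeR (2 at an unadjusted p under 0.05, 2 by DESeq2), and Retnlg, Ly6g, Elane and Ltf had no reads in the intima. The part of these cells in the values of Nr4a3, Mir155hg and the other members was not tested.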

How the data were processed

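Poly-A RNA of sorted cells was amplified with the SMARTer Ultra Low kit, indexed over 12 PCR cycles and sequenced as single reads of 50 bases, per the labels' protocols. The submitters' processing notes name GRCm38, STAR 2.0.4b, Subread and featureCounts 1.4.5; the annotation release and strand setting are not given in the sources used here. The deposited counts are whole numbers for each gene. Both CPM and RPKM as deposited by the authors equalled those computed from the counts in all 5 libraries (0 mismatches at a tolerance of 1e-06). A floor of 3 reads is 0.144 to 0.761 CPM.

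Of the Ensembl IDs, 40254 had a symbol in the reference tables. Counts were tested with edgeR 4.0.16 in R 4.3.3 (filterByExpr at min.count 10 and min.total.count 15, TMM factors, glmQLFit and glmQLFTest, no covariates), fitted over all genes, with Benjamini-Hochberg adjustment and calls at an adjusted p under 0.05. The SE is the size of the log2 difference divided by the square root of F. Alternatives were 3 other scalings, DESeq2 1.42.0, limma 3.58.1 voom, a robust fit, other filters, counts thinned to the smallest library, a fit free of mitochondrial genes, a block for replicate number, and fits that omit 1 library. The test was run on simulated counts with the same spread in both groups, unlike these data, so this run does not show how it behaves here. With 3 against 2 libraries an exact permutation test of 1 gene cannot give a p below 0.1. Stretches of 50 bases were compared with the GENCODE M21 transcripts on both strands. Python 3.11.15 with pandas 2.3.3 handled tables, and matplotlib 3.10.9 drew figures.

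The members, lists and tests were chosen with earlier results of these data known. Values in every library were due for called members, members with separate groups and a log2 difference of at least 2 in size, the 10 of highest mean RPKM and the highest of each role; further members were given after their values were seen. Other lists give called genes and the 3 of highest length-scaled level. Hspa14 and Ighd were not analysed here.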

Additional observations from a re-analysis of the deposited data

How the results depend on the processing

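Nr4a3 and Mir155hg were the called members with upper-quartile, RLE and library-size scaling, with the robust fit and with mitochondrial genes left out. Nr4a3 was called under 12 and Mir155hg under 13 of 16 alternatives. The number of called members was 5 with every gene that had a read, 6 with DESeq2, 4 with limma voom, 1 with thinned counts and 0 to 7 with 1 library left out: 0 without adventitia replicate 1, 2 or 3, 7 without intima replicate 1 and 3 without intima replicate 2. The number of all genes called was 386 with every gene that had a read, 396 with 1 CPM in every library of a group, 1190 with DESeq2, 839 with limma voom and 10 to 389 with 1 library left out. The members' median of -0.44 was -0.92 with upper-quartile scaling, -0.83 with thinned counts and -0.85 to -0.26 with 1 library left out. The cause of these shifts was not tested; leaving out a library also leaves fewer samples, and thinning fewer reads. With the replicate number as a block edgeR called 6 members (1 higher, 5 lower) and 183 of the 13408 tested genes. In that fit adventitia replicate 3 stands alone in its block. Same-numbered libraries correlated at 0.0350 and 0.00565 in their deviations from the group means. The intima libraries deviate from their mean by opposite amounts, so this check rests on a single contrast. It cannot decide whether the numbers pair the samples. Members with changed sign, none of them called, were Fos (-0.20 with upper-quartile scaling, -0.11 thinned), Mafk, Klf6 and Gadd45a (0.10, 0.15 and 0.25 with every gene that had a read), Gadd45a with limma voom (0.83), and Gadd45a, Gadd45g and Dnajb1 with the block (1.23, -0.68 and 0.028). With 1 library left out the ranges that cross 0 were -0.66 to 1.06 for Gadd45a, -3.80 to 2.53 for Gadd45g, -4.87 to 0.53 for Hspb1, -1.40 to 0.37 for Maff, -3.59 to 0.79 for Mafk, -0.76 to 0.12 for Nr4a1, -0.46 to 0.21 for Klf6, -1.08 to 1.498 for Myc, -2.02 to 0.42 for Dusp5, -1.38 to 0.031 for Rhob, -0.12 to 1.33 for Btg2, -1.84 to 0.40 for Hspa1a and -0.092 to 1.48 for Hspa8. Of the 801 values of the 50 members under these settings, 747 kept their direction and their side of the threshold. Few reads limit Egr3, Fosl1 and the intima values of Nr4a3. The intima libraries were the deeper ones, yet had fewer genes with a read (17489 and 16374, against 23289 to 25738 in the adventitia). Its part in these low values was not tested.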
